A study of Homo sapiens with 6 samples.

Results

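The YAP and TEAD transcription factors, their co-regulators and a set of their target genes were compared between U251 cells carrying a PARK2 transgene and U251 control cells carrying GFP. The 10 genes (YAP1, WWTR1, TEAD1, TEAD4, CCN1, CCN2, ANKRD1, AMOTL1, AMOTL2 and LATS2) were chosen by name, as the probe sets with exactly 1 of these symbols in the platform annotation. They hold 24 of the 54675 probe sets of the array, between 1 and 4 per gene.

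U251 is an established human glioma line, and PARK2 codes for parkin, a ubiquitin ligase best known for its part in mitochondrial quality control. Both stable lines, the PARK2 line and the GFP line, were made by viral infection with polybrene and selected with puromycin, so the controls carry a transgene and a selection history too. Each line was measured on 3 Affymetrix arrays that the labels call biological replicates. The promoter that drives either transgene, and whether the 3 arrays of a line stand for separate infections or cultures, are not given in the sources used here, so every p-value reflects array-to-array variation that could be purely technical.

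YAP (YAP1) and TAZ (WWTR1) are co-activators with no DNA-binding domain of their own. They enter the nucleus, join a TEAD factor on DNA and switch on genes of growth and of the matrix, among them CCN1, CCN2 and ANKRD1. The Hippo kinases LATS1 and LATS2 phosphorylate YAP and TAZ and hold them in the cytoplasm, the angiomotins (AMOT, AMOTL1, AMOTL2) bind and retain them there, and LATS2 and AMOTL2 are themselves transcribed by YAP and TEAD, which closes a feedback loop. Much of this regulation acts on the proteins, which were not measured here.

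Levels are given as the deposited linear intensities, differences as log2 fold changes of intensity + 16 (PARK2 minus control, with the standard error, SE), and adjusted p-values come from limma fitted to all tested probe sets with Benjamini-Hochberg adjustment and a threshold of 0.05. Rose and fell are used of probe sets or genes past this threshold. The median intensity of an array lay between 16.2 and 19.3, with correlations of log2 values from 0.983 to 0.990 within groups and from 0.954 to 0.962 between them. Of 10 glioma and astrocyte markers 9 were past the filter on dim probe sets, and the 10 summed to 24555 to 29364 intensity units on control arrays and 26710 to 27223 on PARK2 arrays, while OLIG2 stayed at 7.45 or less on every array. With 1 probe set per gene 5 of the 9 passed the threshold, where 28.8% of all genes did: PTPRZ1 (-1.57), S100B (-1.39) and SLC1A3 (-0.72) fell, and GFAP (0.53) and SOX2 (0.30) rose. When every probe set was tested, 1 of 2 GFAP probe sets and 0 of 4 SOX2 probe sets rose, and the groups overlapped for the GFAP probe set used. PTPRZ1, S100B and SLC1A3 each had 1 tested probe set, which fell. Of 12 markers of other cell types on the array 7 were past the filter, and PTPRC, EPCAM, CDH1, CDH5 and SYP were below it. The summed intensity of these 12 was 471 to 526 on control arrays and 352 to 437 on PARK2 arrays. Of the 7 tested, KRT18 fell by 1.12 and SNAP25 rose by 1.26 on the log2 scale, 28.6% against the 28.8% of all genes. The other 5 did not pass, among them KRT8 (-0.02, adjusted p 0.954). SNAP25 was dim, at 13.3 to 15.8 on control arrays, so its fold change depends on the 16 added. When every probe set was tested, 1 of its 2 rose. The part of these marker differences in the results below was not tested. The level of the PARK2 transgene was not analysed here, and the labels alone define the groups.

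Of the 24 probe sets 23 were bright enough to be tested, and 2 of them passed the threshold. ANKRD1 fell and 1 of the LATS2 probe sets rose. Among all 26603 probe sets tested, 20.4% passed, 9.10% higher and 11.3% lower in PARK2 cells, so the share among the members (2 of 23) was not above the background. The median log2 fold change of the 23 was -0.09, against -0.01 over all probe sets tested, and the median size of change regardless of direction was 0.20 against 0.25. The PARK2 and control arrays did not overlap for 10 of the 23, with PARK2 above in 4 and below in 6. Over all probe sets tested 35.1% did not overlap, 16% with PARK2 above and 19.1% below. A change of at least 2-fold past the threshold was seen for ANKRD1 alone among the 23 and for 4.62% of all probe sets tested. With 3 arrays against 3 an exact permutation test of a single probe set cannot give a p below 0.1.

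**Figure D1:**
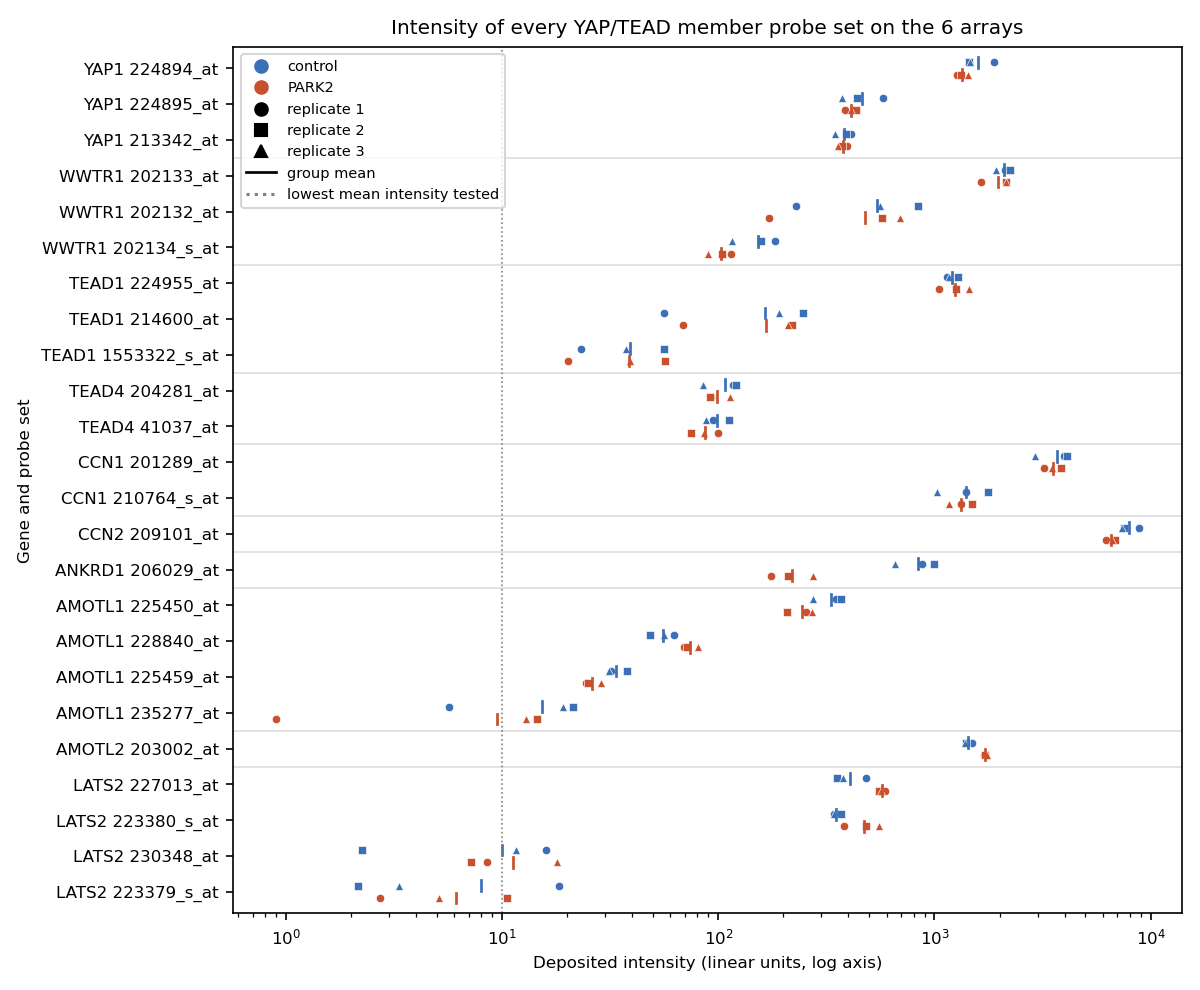
Deposited intensity (log axis) of all 24 member probe sets on the 3 control (blue) and 3 PARK2 (red) arrays, with symbols for the replicate number, short bars for group means and a dotted line at the lowest mean intensity tested, 9.96. ANKRD1 is lower on every PARK2 array (175 to 276 against 654 to 992) and LATS2 227013_at higher, and WWTR1 202132_at, TEAD1 214600_at and AMOTL1 235277_at are lowest on replicate 1 of both groups.

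No probe set of the co-activators or of their DNA-binding partners passed the threshold. YAP1 was read by 3 probe sets. On 224894_at control cells were at 1889, 1439 and 1461 intensity units and PARK2 cells at 1277, 1324 and 1435. All 3 PARK2 arrays were below all 3 control arrays, but control replicate 2 and PARK2 replicate 3 nearly touched. The log2 fold change was -0.23 (SE 0.14, limma's adjusted p 0.260), with a 95% interval from -0.52 to 0.05. Without control replicate 1 it was -0.11 (adjusted p 0.424). On 224895_at the control arrays were at 575, 440 and 375 and the PARK2 arrays at 385, 433 and 411, and on 213342_at at 410, 392 and 345 against 396, 374 and 359. The groups overlapped on both, with log2 fold changes of -0.15 and -0.02. All 3 probe sets had their highest value on control replicate 1. That array also had the highest trimmed mean intensity over all probe sets, 168 against 137 to 155 on the others. With trimmed mean scaling 224894_at was at -0.21 (SE 0.08, limma's adjusted p 0.0754). On 224894_at and 224895_at the log2 difference between the arrays numbered 1 was -0.56, against -0.12 and -0.03, and -0.02 and 0.13, for the arrays numbered 2 and 3.

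WWTR1, which codes for TAZ, gave 3 readings of unequal precision. On 202133_at its level was 2113, 2235 and 1930 in control cells and 1636, 2132 and 2137 with PARK2, giving a log2 fold change of -0.10 (95% interval -0.37 to 0.18). The groups overlapped, and PARK2 replicate 1 alone lay below the control range. On 202134_s_at the control arrays were at 182, 157 and 116 and the PARK2 arrays at 114, 104 and 89.2. The groups did not overlap, and the log2 fold change of -0.49 (SE 0.18) missed the threshold with an adjusted p of 0.0676. It passed with quantile normalization (adjusted p 0.0490), trimmed mean scaling (0.0409), array weights (0.00178) and without control replicate 3 (-0.65, adjusted p 0.0186). After subtraction of the level of neighbouring genes it was -0.27 (adjusted p 0.278), and 202133_at turned from -0.10 to 0.13 (adjusted p 0.407). On 202132_at the values were 228, 837 and 559 in control and 172, 573 and 694 with PARK2. The log2 fold change was -0.20 with a 95% interval from -1.06 to 0.65, so that a doubling of this signal would have been past the interval and a halving would not.

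TEAD1 was level on its steadiest probe set. On 224955_at control arrays read 1148, 1282 and 1174 and PARK2 arrays 1048, 1260 and 1444, a log2 fold change of 0.05 with a 95% interval from -0.25 to 0.34. The PARK2 arrays spread to both sides of the control range. On 214600_at control arrays were at 55.9, 246 and 191 and PARK2 arrays at 68.8, 219 and 211, and on 1553322_s_at at 23.2, 56.2 and 37.4 against 20.1, 56.3 and 38.8. Here the spread within each group was several times any difference between them, and arrays of the same number read alike. The log2 fold changes were 0.07 (SE 0.39) and -0.03 (SE 0.26).

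Replicate 1 was under 50% of both other arrays, in both groups, on WWTR1 202132_at, TEAD1 214600_at and AMOTL1 235277_at. Of all 26603 probe sets tested 265 (0.996%) showed this for replicate 1, 78 for replicate 2 and 39 for replicate 3. The actin 3′ to 5′ ratio, a measure of RNA and labelling quality, was 5.31 and 5.66 on the arrays numbered 1 and between 3.53 and 4.48 on the other 4. The same ratio for GAPDH was not raised on the arrays numbered 1, at 1.04 and 1.02 against 1.04 to 1.17 on the other 4. The part of the actin difference in these values was not tested.

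TEAD4, the other TEAD factor among the members, differed by less than the spread between replicates on both of its probe sets. On 204281_at control arrays were at 117, 120 and 84.6 and PARK2 arrays at 92.8, 91.8 and 113 (log2 fold change -0.09, 95% interval -0.47 to 0.28). On 41037_at they were at 94.5, 112 and 88.0 against 99.4, 74.9 and 85.4 (-0.16, 95% interval -0.52 to 0.21), which passed with array weights alone (-0.34, adjusted p 0.0373).

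The target genes did not move together. ANKRD1, a nuclear ankyrin repeat protein and among the most YAP-responsive genes in many cell types, had the largest change of the 10. Its single probe set, 206029_at, was at 872, 992 and 654 in control cells and at 175, 210 and 276 in PARK2 cells. Every PARK2 array was below every control array with a wide gap between the groups. From means of 839 ± 171 (SD, n = 3) and 220 ± 51.2 the log2 fold change was -1.86 (SE 0.18), 3.63-fold lower, with an adjusted p of 8.3e-07 by limma. A larger change in either direction was seen in 0.925% of the probe sets tested. The call held under all 18 alternative settings tried, with log2 fold changes from -2.02 to -1.63 and adjusted p from 7.0e-22 to 0.000445. In bulk RNA, fewer cells with the transcript and less of it per cell cannot be told apart.

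CCN2, which codes for connective tissue growth factor, a secreted matrix protein, was far nearer its control level. Probe set 209101_at read 8831, 7572 and 7359 in control cells and 6233, 6868 and 6600 in PARK2 cells. All 3 PARK2 arrays were below the control arrays, and the log2 fold change of -0.27 (SE 0.10) had an adjusted p of 0.0806, outside the threshold. With the replicate number as a block CCN2 passed (adjusted p 0.0245), which brought the members lower from 1 to 2 probe sets. It also passed with median centring (-0.28, adjusted p 0.0369), quantile normalization (-0.24, adjusted p 0.00745), trimmed mean scaling (-0.24, adjusted p 0.0187) and array weights (-0.19, adjusted p 0.0152).

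CCN1, also known as CYR61 and a secreted relative of CCN2, was level. On 201289_at control cells were at 3998, 4085 and 2932 and PARK2 cells at 3224, 3856 and 3491. The PARK2 arrays all lay inside the control range, and the log2 fold change was -0.05 (95% interval -0.33 to 0.23). On 210764_s_at the values were 1399.5, 1769 and 1026 against 1323, 1493 and 1170, with a log2 fold change of -0.05 (95% interval -0.40 to 0.31). For CCN1 a change of 1.5-fold in either direction lies outside both intervals.

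The difference between ANKRD1 and CCN2 can be set beside their promoters, since both carry the letters bound by TEAD factors in the 250 bases before the start site. RefSeq promoter windows (GRCh38.p14) were at hand for 7 of the 10 genes, in 9 windows, and TEAD1, TEAD4 and CCN1 had none. The search took GGAATG and its reverse complement CATTCC for TEAD. For AP-1, a factor that often binds beside TEAD, it took TGANTCA, its own reverse complement. N is any base, so this pattern also takes strings other than the AP-1 consensus, TGATTCA among them. CCN2 held the TEAD letters at 3 places, beginning 169, 104 and 95 bases before the start. ANKRD1 held them at 2, beginning 220 and 128 bases before it, with TGATTCA, a match to the looser AP-1 pattern, at 195. AMOTL2 held CATTCC in 1 of its 2 windows and YAP1 held GGAATG in its only window. Among all 35116 windows 11.9% held at least 1 TEAD match, 0.94% at least 2 and 0.0826% at least 3. A match to TGANTCA was held by 6.57%. The windows are shown for the gene that fell most, for CCN2 and for AMOTL2, with matches in capitals, at chr10:90921088-90921337, chr6:131951373-131951622 and chr3:134374448-134374697, all on the minus strand and 5′ to 3′ along the gene.
ANKRD1: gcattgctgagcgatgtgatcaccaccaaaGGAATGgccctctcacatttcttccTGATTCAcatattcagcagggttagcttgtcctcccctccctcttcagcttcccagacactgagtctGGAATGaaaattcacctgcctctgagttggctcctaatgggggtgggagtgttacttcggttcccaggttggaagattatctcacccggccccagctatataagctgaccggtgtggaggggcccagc
CCN2: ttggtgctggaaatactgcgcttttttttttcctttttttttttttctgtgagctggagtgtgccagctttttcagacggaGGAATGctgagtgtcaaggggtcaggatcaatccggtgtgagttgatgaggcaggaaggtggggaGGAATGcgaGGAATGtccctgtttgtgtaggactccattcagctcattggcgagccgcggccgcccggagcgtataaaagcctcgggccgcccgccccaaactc
AMOTL2: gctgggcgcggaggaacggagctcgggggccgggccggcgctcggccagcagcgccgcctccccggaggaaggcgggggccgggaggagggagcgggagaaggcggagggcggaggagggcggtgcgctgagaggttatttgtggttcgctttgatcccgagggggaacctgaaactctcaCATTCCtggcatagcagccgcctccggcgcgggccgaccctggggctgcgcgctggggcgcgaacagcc
A match is a string of letters and no measured site. The 4 genes with these strings had log2 fold changes of -1.86 for ANKRD1, -0.27 for CCN2, 0.27 for AMOTL2 and -0.23 for the brightest YAP1 probe set, of which ANKRD1 passed the threshold, and the windows of LATS2, WWTR1 and AMOTL1 held neither motif.

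**Figure D2:**
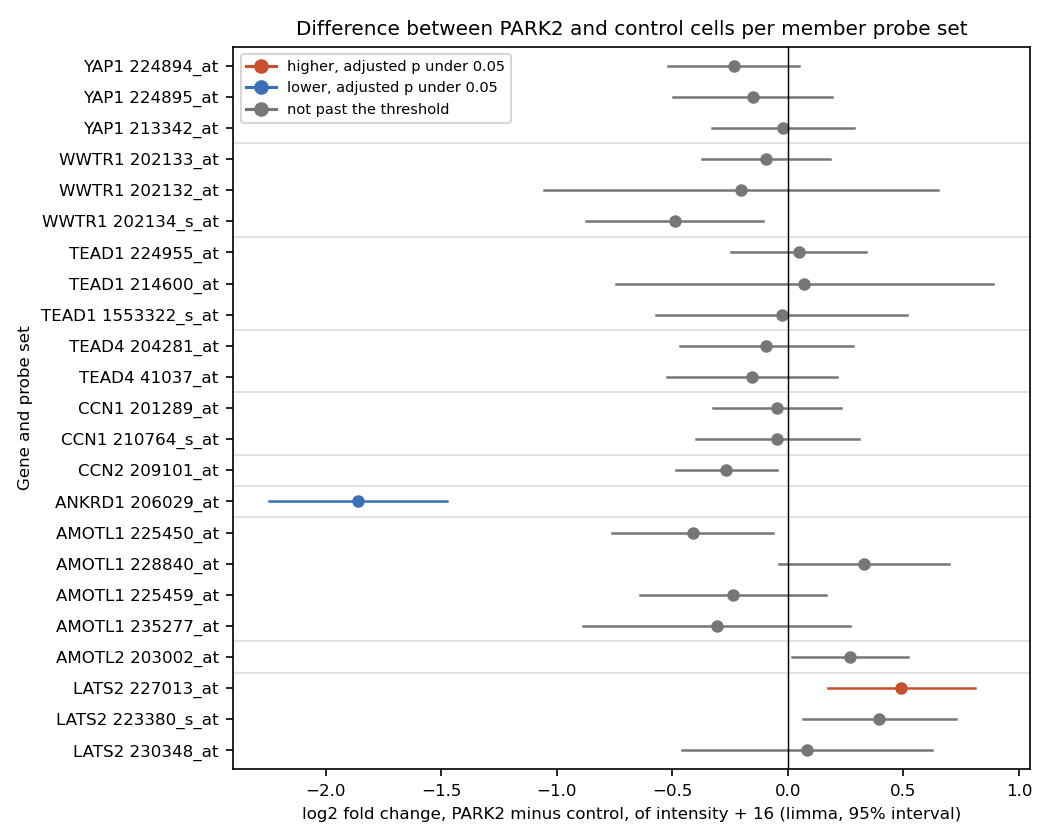
Log2 fold change, PARK2 minus control, with its 95% interval from limma for the 23 tested member probe sets. ANKRD1 stands at -1.86 and LATS2 227013_at at 0.49, and the other 21 did not pass the threshold.

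LATS2, the Hippo kinase that YAP itself induces, was read by 4 probe sets, of which 1 rose. On 227013_at control cells were at 483, 353 and 379 and PARK2 cells at 593, 557 and 564. The groups did not overlap, and the log2 fold change was 0.49 (SE 0.15, limma's adjusted p 0.0277). This call rested on all arrays but one: it was lost without control replicate 2 (0.40, adjusted p 0.175), control replicate 3 (adjusted p 0.0663), PARK2 replicate 1 (0.0784), PARK2 replicate 2 (0.0784) or PARK2 replicate 3 (0.0847), and without an intensity trend in the variance model (0.0614). On 223380_s_at, where control arrays were at 341, 369 and 344 and PARK2 arrays at 383, 480 and 553, the groups were also apart, with a log2 fold change of 0.40 (SE 0.16, adjusted p 0.0880). It passed with median centring (0.0499), quantile normalization (0.0280), trimmed mean scaling (0.0302), array weights (0.00700), the neighbour subtraction (0.0365) and without PARK2 replicate 1 (0.53, adjusted p 0.0338). Probe set 230348_at was dim, at 16.01, 2.25 and 11.6 against 8.46, 7.17 and 17.9, and the last, 223379_s_at, was below the filter at 18.4, 2.15 and 3.33 against 2.71, 10.5 and 5.10, both near the lowest intensity tested.

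AMOTL2, an angiomotin that is also a YAP target, was higher on every PARK2 array without passing. On 203002_at control cells were at 1489, 1398 and 1384 and PARK2 cells at 1693, 1710 and 1750. The log2 fold change was 0.27 (SE 0.12, 95% interval 0.02 to 0.52) with an adjusted p of 0.129. It passed with quantile normalization (0.31, adjusted p 0.00723), trimmed mean scaling (0.29, adjusted p 0.0168), array weights (0.29, adjusted p 0.00330), after subtraction of the level of neighbouring genes (0.31, adjusted p 0.0141, described below) and without control replicate 1 (0.30, adjusted p 0.0207).

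AMOTL1, a second angiomotin, gave opposite readings on its probe sets. On 225450_at control arrays were at 351.1, 368 and 273 and PARK2 arrays at 255, 207 and 270, a log2 fold change of -0.41 (SE 0.17, adjusted p 0.0919). On 228840_at they were at 62.3, 48.3 and 56.3 against 69.1, 71.8 and 80.7, a log2 fold change of 0.33 (SE 0.18, adjusted p 0.216). The groups did not overlap on either, below in the first and above in the second. The others were at 31.8, 37.9 and 31.2 against 24.5, 24.9 and 28.8 on 225459_at (-0.24) and at 5.67, 21.3 and 19.04 against 0.901, 14.6 and 12.9 on 235277_at (-0.31). No AMOTL1 probe set passed. With array weights both did, in opposite directions (-0.56, adjusted p 0.00115, and 0.47, adjusted p 0.00638), and 225450_at passed with quantile normalization (0.0491), trimmed mean scaling (0.0475) and without control replicate 3 (-0.54, adjusted p 0.0340).

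With 1 value per gene, the brightest probe set, 13720 genes were tested and 28.8% passed, 13.3% higher and 15.6% lower. Of the 10 members 1 rose (LATS2) and 2 fell (ANKRD1 and AMOTL1), with a median log2 fold change of -0.09 against -0.003 over all genes. AMOTL1 was called here at -0.41 with an adjusted p of 0.0468, a call lost with the replicate block (0.103), without any single array other than control replicate 3 (up to 0.316), as the mean of its probe sets (-0.16, adjusted p 0.513), after the neighbour subtraction (-0.17, adjusted p 0.352), without a filter (0.107), without an intensity trend (0.0934), with a pseudocount of 1 (0.0539) and without _x_at and _s_at probe sets (0.0522). The block brought in CCN2 as it lost AMOTL1 (CCN2 adjusted p 0.0582 without it and 0.0167 with it), so the count of 2 lower stayed. CCN2 also passed with the 60th-percentile filter (0.0465), median centring (0.0292), quantile normalization (0.00286), trimmed mean scaling (0.0162), array weights (0.00111) and the neighbour subtraction (5.3e-06). AMOTL2 (0.123) passed, higher, with the last 4 of these settings. With array weights WWTR1, TEAD4 and CCN1 passed as well, all lower (0.0493, 0.0350 and 0.0136). YAP1, at an adjusted p of 0.209, passed with quantile normalization alone (-0.20, adjusted p 0.0411). LATS2, with an adjusted p of 0.0101 in this fit, lost the call without control replicate 2 (0.129), without PARK2 replicate 1 (0.0531) and as the mean of its probe sets (0.32, adjusted p 0.119).

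To see whether a member differed from the genes around it, each was set beside the 20 nearest tested genes on each side in RefSeq order. The neighbours of CCN2 on chromosome 6 had a median log2 fold change of 0.33, with 18 of 40 higher and 1 lower, and 12.8% of all genes had neighbours with a larger median shift. CCN2, at -0.27, was below that local level, and after each array's neighbour median was subtracted it fell, at -0.66 (SE 0.06, limma's adjusted p 6.1e-05). CCN1 lay among higher neighbours as well (median 0.22, 13 of 40 higher and 2 lower), and after the subtraction its probe sets were at -0.27 and -0.26 (adjusted p 0.104 and 0.318). WWTR1 lay among lower neighbours on chromosome 3 (median -0.21, 15 of 40 lower and 5 higher). Neighbours of AMOTL1 on chromosome 11 had a median of -0.21 with 16 of 40 lower and 3 higher, and its brightest probe set was at -0.17 (adjusted p 0.437) after the subtraction, while 228840_at rose (0.57, adjusted p 0.0137). Around ANKRD1 the median was -0.23 and around LATS2 0.003, and after the subtraction ANKRD1 was at -1.63 (adjusted p 0.000172) and LATS2 227013_at at 0.48 (adjusted p 0.0184). In this setting 4 member probe sets rose and 2 fell.

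**Figure D3:**
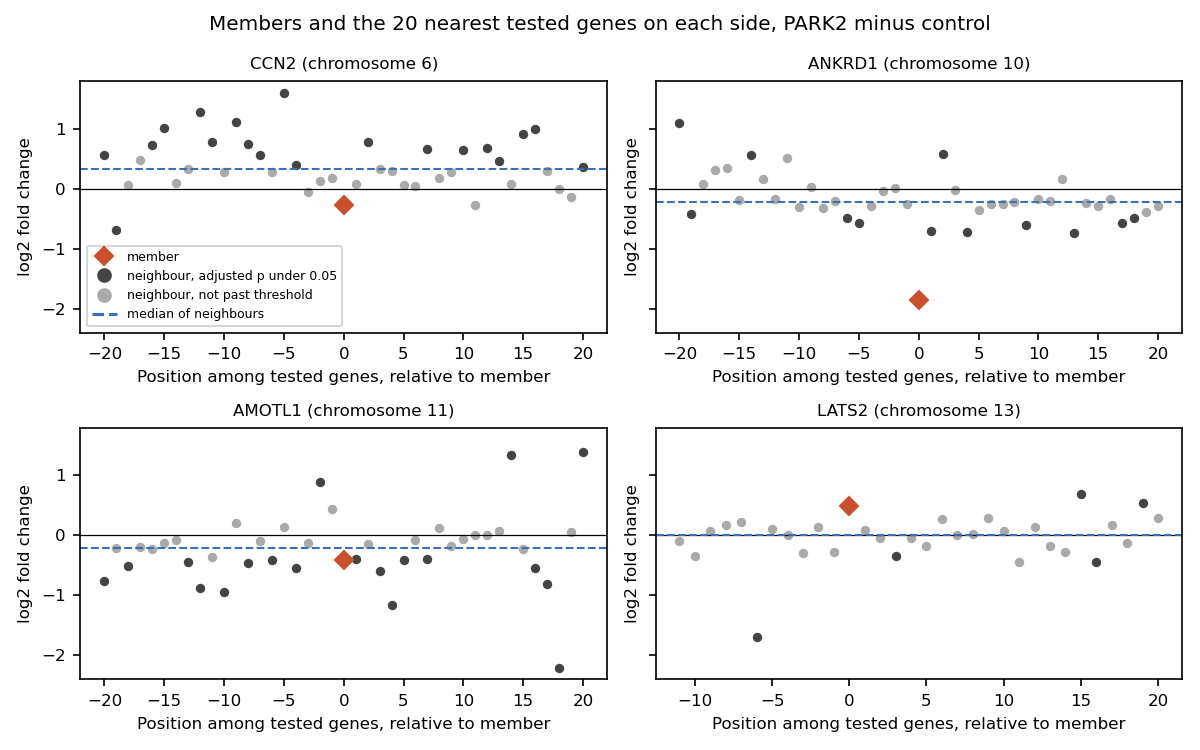
Log2 fold change of CCN2, ANKRD1, AMOTL1 and LATS2 (red diamonds) and of the nearest tested genes on each side, 40 in all but 31 for LATS2, in chromosome order, with the median of the neighbours as a dashed line. CCN2 lies below a local median of 0.33, AMOTL1 near one of -0.21, and ANKRD1 far below one of -0.23.

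Other genes of the pathway, from lists of known components and targets, are given by the same 1-value-per-gene fit. Of 34 tested YAP/TAZ-TEAD targets other than the members 12 rose and 5 fell, with a median log2 fold change of 0.15, and the 28.8% of all genes that passed is the background for these counts. Those with the largest rises were the neurotrophin gene BDNF, from 45.7 ± 9.02 (SD, n = 3) to 318 ± 29.2 (2.44, adjusted p 3.2e-19), CAVIN2, which codes for a caveolar coat protein, from 117 ± 10.1 to 499.5 ± 40.5 (1.95), and the tissue factor gene F3, from 249 ± 17.4 to 976 ± 135 (1.90). Against these, the transglutaminase gene TGM2 fell from 289 ± 39.7 to 64.8 ± 11.1 (-1.92, adjusted p 8.0e-15), SMAD3, a TGF-beta signal transducer, from 1577 ± 162 to 785 ± 84.0 (-0.99), and MYOF, which codes for myoferlin, from 3021 ± 498 to 1799 ± 47.6 (-0.73). After the neighbour subtraction SMAD3 was at -0.44 (adjusted p 0.00352) and MYOF at -0.41 (0.00223). Each of these 6 genes had all of its tested probe sets past the threshold in the same direction when every probe set was tested.

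Of 36 tested Hippo pathway components outside the members 7 rose and 6 fell (median -0.01), 36.1% against 28.8% of all genes. The lists share genes, so their counts are not separate results. PTPN14 and AJUBA, which rose, are also counted among the YAP/TAZ-TEAD targets, and LATS1, which rose, among the relatives below. The atypical cadherin gene FAT4 rose from 44.6 ± 1.06 to 210 ± 17.3 (1.90, adjusted p 2.0e-14), the scaffold gene WWC1, also called KIBRA, by 1.03 and the phosphatase gene PTPN21 by 0.85. YWHAZ, a 14-3-3 protein gene, fell by 0.65, LIMD1 by 0.64 and RASSF2 by 0.58. After the neighbour subtraction YWHAZ was at -0.21 (adjusted p 0.0958), and 14 of the 36 rose and 2 fell. LIMD1 was at -0.35 (adjusted p 0.0258) after that subtraction and at -0.34 (adjusted p 0.102) as the mean of its probe sets. PTPN21 as the mean of its probe sets was at 0.47 (adjusted p 0.0398), with 1 of 3 tested probe sets past the threshold. WWC1 was at 0.31 (adjusted p 0.385) without _x_at and _s_at probe sets and at 0.66 with a pseudocount of 64, and RASSF2 without PARK2 replicate 3 was at -0.51 (adjusted p 0.0589). The core kinase genes STK3 and STK4 were at 0.01 and 0.31 (adjusted p 0.978 and 0.103), the adaptor genes SAV1 and MOB1A at -0.27 and -0.32 (0.204 and 0.0739), and NF2, which codes for merlin, at 0.23 (0.205). These 5 were named after their values were seen. When every probe set was tested, 2 of the 4 MOB1A probe sets fell, and none of STK3, STK4, SAV1 or NF2 passed.

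Among relatives of the members 3 of 9 tested rose and 0 fell (median 0.22, by unadjusted p under 0.05 also 3 and 0). That is 33.3% called, near the 28.8% of all genes (13.3% higher and 15.6% lower). VGLL3 codes for a vestigial-like cofactor that binds TEAD factors in place of YAP. It was at 5.47, 6.41 and 1.23 in control cells, below the lowest mean intensity tested, and at 214, 265 and 268 in PARK2 cells, and it passed the filter through the PARK2 arrays alone. No fold change is given, since it would turn on the pseudocount, and the count of 3 includes this gene. VGLL2, another of these cofactors, rose from 12.8 ± 2.45 to 45.1 ± 14.1 (1.06, adjusted p 9.9e-05; a pseudocount of 1 gave 1.72 and one of 64 gave 0.50). VGLL4 was at 0.13 (adjusted p 0.614). LATS1, the paralogue of LATS2, was at 476, 345 and 380 in control and 478, 560 and 569 with PARK2, a rise of 0.41 (adjusted p 0.0348) that was lost with the replicate block (0.0846), after the neighbour subtraction (0.20, adjusted p 0.147), without a filter (0.0755), without an intensity trend (0.0843), and without control replicate 2 (0.266), PARK2 replicate 2 (0.167) or PARK2 replicate 3 (0.169). Its probe set did not pass when every probe set was tested. TEAD2 and TEAD3 were at 0.06 and -0.07 (adjusted p 0.852 and 0.847), and no TEAD gene passed the threshold.

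SRF and its co-activators of the MRTF family share several targets with YAP and TEAD, ANKRD1, CCN1 and CCN2 among them. Of 17 tested genes of that list 6 rose and 1 fell (median 0.17). That is 41.2% called, against 28.8% of all genes, 13.3% higher and 15.6% lower. ACTG2, a smooth muscle actin gene, rose from 66.1 ± 2.60 to 696 ± 9.73 (3.12, adjusted p 3.2e-26), EGR1 rose by 1.15 and FOS, at 20.5 ± 12.7 in control cells, by 0.84, while ZYX, which codes for zyxin, fell by 0.65. EGR1 was at 0.67 (adjusted p 0.000121) without control replicate 3. FOS was at 1.35 and 0.40 with pseudocounts of 1 and 64 and did not pass without a filter (adjusted p 0.0701). ZYX was at -0.06 (adjusted p 0.761) after the neighbour subtraction. SRF itself was at -0.11 (adjusted p 0.731).

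**Figure D4:**
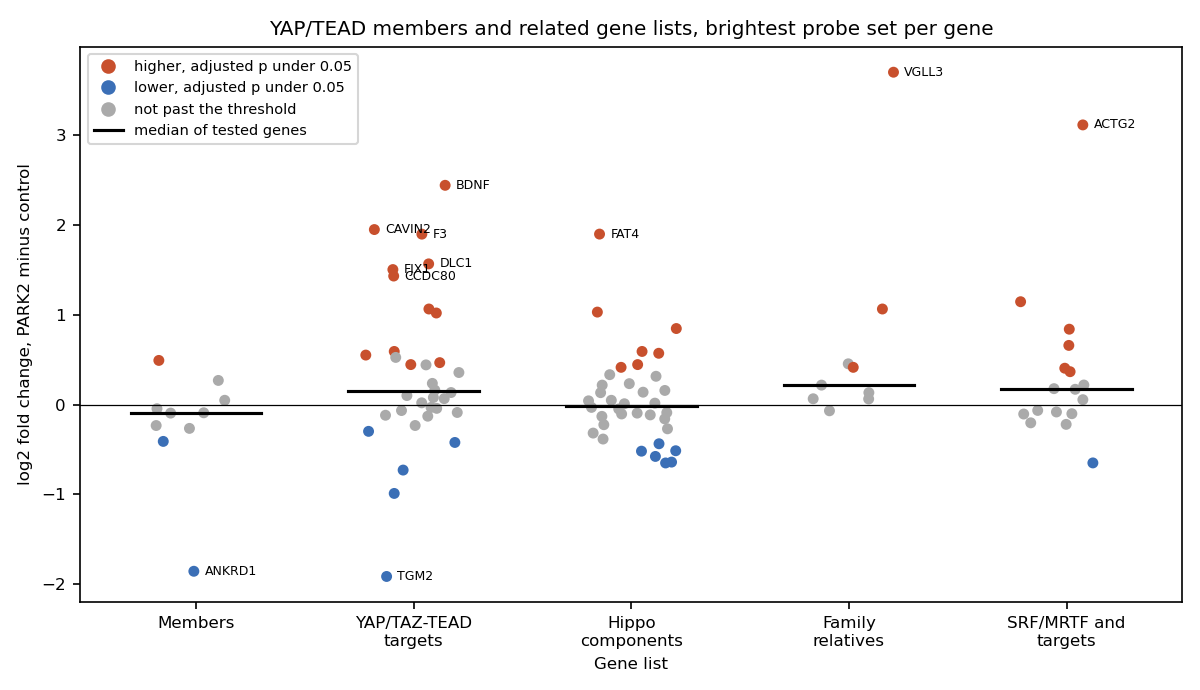
Log2 fold change, PARK2 minus control, of the brightest probe set per gene for the 10 members and 4 related lists, with genes past the threshold in red (higher) and blue (lower) and a bar at the median of each list. ANKRD1 at -1.86 and TGM2 at -1.92 lie opposite BDNF, CAVIN2, F3 and ACTG2, which are at 1.90 or above, and the point for VGLL3 rests on control values below the lowest mean intensity tested.

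The genes with the pattern most like that of YAP1 over the 6 arrays were OGA, NPEPL1 and MAPK9 (Pearson's r of log2 values 0.995, 0.994 and 0.994), and those most like CCN2 were ESCO1, DNAJB12 and RELCH (0.998, 0.996 and 0.995). Such values were common with 6 arrays from 2 groups: 690 of the 13720 genes exceeded 0.9 with YAP1 and 1460 with CCN2.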

How the data were processed

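Total RNA from 6 samples, 3 U251-GFP and 3 U251-PARK2, was labelled with biotin and read on Affymetrix arrays, per the labels' protocols. The authors deposited an intensity on a linear scale for each probe set. The submitters' processing notes list GCOS and MAS5 without a role or version; what scaling target they were given is not known, and detection calls were not used here. Probe sets were named through GEO's platform annotation (41091 with 1 symbol, 1801 with several, 11721 with none, 62 controls), and 0 symbols were changed by RefSeq gene numbers.

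Intensities were turned into log2(value + 16). Fold changes are on this scale, which understates the change of dim genes. Probe sets with 1 symbol and a mean log2 value at or above the 40th percentile were fitted with limma 3.58.1 (R 4.3.3), with an intensity trend and Benjamini-Hochberg adjustment over all 26603. A fit of the brightest probe set per gene (13720) served the gene lists. Every member probe set is shown; of each list the 3 largest rises and 3 largest falls past the threshold are named, and genes named after their values were seen (STK3, STK4, SAV1, MOB1A, NF2, VGLL4, TEAD2, TEAD3 and SRF) fall outside this rule. On simulated data the fit recovered 6% of changes of 1.5-fold, 43.3% of 2-fold and 93.9% of 4-fold, with 3 false calls. Whether the simulated spread matches that of the member probe sets was not tested, and LATS2 227013_at passed at 1.41-fold. The shares therefore set no limit for a single member. A member that did not pass may still have changed by an amount inside its own interval. For CCN1 both intervals leave out a change of 1.5-fold, while that of WWTR1 202132_at, from -1.06 to 0.65, does not. Members, lists and tests were chosen with earlier results of these data known.

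The labels number the arrays 1 to 3 in both groups. Over the probe sets tested, the deviations of same-numbered arrays from their group means correlated (r of 0.401, 0.179 and 0.130), while control 3 correlated better with PARK2 2 (0.162). Over 1 probe set per gene the same values were 0.168, 0.0453 and 0.0649. The labels do not state a pairing, so it rests on these correlations, and the fit with the replicate number as a block is given where it changes a call. No arrays were duplicates. The number of arrays limits the precision. Alternatives covered the filter, pseudocount, normalization, variance model, array weights, block, probe set choice, neighbouring genes and each array left out.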

Additional observations from a re-analysis of the deposited data

How the results depend on the processing

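ANKRD1 kept its direction and its call in all 18 alternatives of the probe set fit, and no member reversed a call. The count of member probe sets called, 1 higher and 1 lower as deposited, was 2 and 2 with median centring, 3 and 4 with quantile normalization, 3 and 4 with trimmed mean scaling, 4 and 5 with array weights (whose estimation stopped before it converged), and 4 and 2 after the neighbour correction. It was 0 higher without an intensity trend, 0 higher when a change of 1.5-fold was asked for, and 2 lower with the replicate block. Leaving out 1 array gave 0 to 2 higher and 1 to 3 lower. The block changed no call of a member probe set other than that of CCN2. Over all probe sets, 2422 higher and 2994 lower as deposited, 3702 were higher with quantile normalization and 3732 with trimmed mean scaling, and 5905 higher and 5352 lower with array weights, and leaving out 1 array gave 1529 (without PARK2 replicate 3) to 3635 (without control replicate 1) higher and 2166 to 3175 lower. Of the member genes, 1 higher and 2 lower by brightest probe set, the mean of probe sets gave 0 and 1 and dropping _x_at and _s_at probe sets 1 lower. Quantile normalization gave 2 and 4, trimmed mean scaling 2 and 3, array weights 2 and 6, and the neighbour correction 2 higher. Median centring and the filter at the 60th percentile gave 3 lower each, and no filter, pseudocount 1 and no intensity trend 1 lower each. Leaving out 1 array gave 0 to 2 higher and 1 to 3 lower. Of the Hippo components (7 and 6), 13 were higher and 10 lower with array weights and 11 higher without control replicate 1, and 3 lower without PARK2 replicate 2. Lower YAP/TAZ-TEAD targets were 3 in place of 5 without an intensity trend, without _x_at and _s_at probe sets or without PARK2 replicate 1, and SRF and MRTF list genes 3 lower in place of 1 with quantile normalization. Gene fits other than those of probe set choice, quantile normalization and neighbours were added after seeing the data. The cause of these changes was not tested. The scaling moved the median of all probe sets by at most 0.02 on the log2 scale, and dim probe sets (LATS2 230348_at and 223379_s_at, AMOTL1 235277_at) limit what their genes can show.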
